A study of Mus musculus with 5 samples.

Results

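Nanog, Pou5f1, Sox2, Zfp42, Sall4 and Esrrb are transcription factor genes of the pluripotency network, chosen by symbol as 6 of the 32285 genes listed in each of 5 droplet single-cell RNA libraries. All 6 were present in every library, and none was lost to a filter on low values. The cells were REX-1 RFP mouse embryonic stem cells, in which the promoter of Rex1 (another name of Zfp42) drives a red fluorescent protein, so that all 5 libraries carry the reporter. Every culture lasted 72 h: the library named NS had leukaemia inhibitory factor (LIF), the library named ND had none, and 3 libraries had LIF with sorbitol, an osmotic stressor, at 200, 250 or 300 mM. The labels do not spell out NS and ND. They give 1 library per condition, and whether the reporter line is a single clone is not given in the sources used here.

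In mouse embryonic stem cells, Pou5f1 (which encodes Oct4) and Sox2 bind DNA side by side at composite octamer and Sox elements, and with Nanog they keep their own genes and one another's active. LIF acts through its receptor and Stat3 on Klf4 and Tbx3, which feed into this core. Esrrb, an orphan nuclear receptor, and Zfp42, a zinc finger protein related to Yy1, mark the naive state. Sall4 is a zinc finger protein that binds with the core factors and recruits the NuRD histone deacetylase complex.

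Promoter sequence is shown first, because Oct4 and Sox2 are known to act on genes of their own network. RefSeq (GRCm38.p6) promoter windows, from 250 bases before to 50 after a start, were found for 5 of the 6 genes, with 2 starts each for Nanog, Esrrb and Pou5f1; Sall4 is named only. A pair of short words was searched on both strands: the octamer core TTTGCAT and the Sox core CATTGT, which do not overlap each other in these windows. The stretches that hold an octamer core are printed 5′ to 3′ along the gene's strand, with both words in capitals (ATGCAAA and ACAATG are the same words read on the other strand).
Nanog (chr6:122707394-122707440, plus strand): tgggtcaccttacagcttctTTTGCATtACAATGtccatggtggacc
Sox2 (chr3:34649876-34649922, plus strand): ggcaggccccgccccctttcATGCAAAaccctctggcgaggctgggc
Zfp42 (chr8:43307168-43307214, minus strand): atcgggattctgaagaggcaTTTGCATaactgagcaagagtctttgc
In Nanog the octamer core and the Sox core stand 1 base apart, 75 and 67 bases upstream of 1 listed start and 151 and 143 bases upstream of the other. The octamer core lies 99 bases upstream of the RefSeq start of Sox2 and 185 bases upstream of that of Zfp42. These RefSeq starts lie upstream of the GENCODE gene starts given with the levels, so distances from the latter are larger. The Pou5f1 and Esrrb windows hold no octamer core, and 1 of the 2 windows of each holds a Sox core. Of 32851 promoter windows of the same length, 4.63% hold the octamer core, 12.6% the Sox core and 0.813% both. These matches describe letters and are not evidence of binding.

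Each library held 10000 barcodes, and the total of unique molecular identifiers (UMIs) was 22158653 in NS against 8404105 to 9766705 in the other libraries, with a median of 2135 UMIs per barcode in NS and 800 to 939 elsewhere. Of these barcodes, 9240 to 10000 per library had 500 genes or more and no more than 20% mitochondrial UMIs, and these were kept. Their median mitochondrial share ran from 3.90% in NS to 6.06% at 300 mM sorbitol. Any pair of libraries shared 34 to 54 barcode sequences. Levels are CPM, that is UMIs summed over kept barcodes and scaled to a total of 1000000. Brackets hold 95% intervals that cover counting error only. With single libraries there is no test across samples: ratios compare these libraries, batch and condition cannot be told apart, and fewer cells with a transcript and less of it per cell cannot be told apart in a summed level. A gene was called higher or lower past 1.5-fold with at least 5 CPM in either library.

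Sall4 differed most from NS. Its level was 81.8 CPM (NS), 162 (ND), 197 (200 mM), 208 (250 mM) and 317 (300 mM). NS was lowest and 300 mM highest, and only the step from 200 to 250 mM lay within counting error (log2 ratio 0.08, -0.02 to 0.17). The ND library stood 1.98-fold above NS (log2 0.99, 0.88 to 1.09). The 300 mM library stood 3.87-fold above it (log2 1.95, 1.87 to 2.04). These log2 ratios lay at percentiles 97.0 (ND), 94.0, 95.5 and 98.2 (200, 250 and 300 mM) of all genes measured in each comparison. Sall4 (ENSMUSG00000027547) lies on chromosome 2, 168748332 to 168767943, minus strand. Gm14261, on the opposite strand, overlaps it but held at most 2 UMIs in any library.

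Sox2 was also above NS in the other 4 libraries. It stood at 358 CPM (NS), 514 (ND), 630 (200 mM), 674 (250 mM) and 682 (300 mM). The order of the libraries follows that list, and the 2 highest, 250 and 300 mM, did not differ beyond counting error. The log2 ratios to NS were 0.52 (0.47 to 0.58) in ND and 0.81, 0.91 and 0.93 over the doses, so that Sox2 passed 1.5-fold at every sorbitol dose and not in ND. Sox2 (ENSMUSG00000074637; chromosome 3, 34650405 to 34652461, plus strand) lies inside Sox2ot, a long noncoding RNA gene on the same strand, which held 49 to 91 UMIs per library against 4067 to 7943 for Sox2.

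Pou5f1, the partner of Sox2, did not follow it. Its levels were 248 CPM (NS), 249 (ND), 185 (200 mM), 240.0 (250 mM) and 170 (300 mM). In CPM, NS, ND and the 250 mM library could not be told apart by counting, and the other sorbitol libraries were lower. The lowest, 300 mM, was 1.46-fold below NS (log2 -0.54, -0.63 to -0.46), short of the 1.5-fold line, at percentile 11.7 of all genes. Pou5f1 (ENSMUSG00000024406) lies on chromosome 17, 35506018 to 35510772, plus strand. Gm19553 on the opposite strand held 3 to 27 UMIs, against 1412 to 5499 for Pou5f1.

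Nanog was highest without LIF. It stood at 123 CPM (NS), 185 (ND), 124 (200 mM), 169 (250 mM) and 133 (300 mM). The 200 mM library matched NS within counting error, and ND lay just short of the 1.5-fold line (log2 0.58, 0.49 to 0.68). Across the doses Nanog, like Pou5f1, was highest at 250 mM. Nanog (ENSMUSG00000012396) lies on chromosome 6, 122707489 to 122714633, plus strand.

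Esrrb varied least, by 1.43-fold between its lowest and highest library. It stood at 91.8 CPM (NS), 89.3 (ND), 73.8 (200 mM), 106 (250 mM) and 106 (300 mM). Its log2 ratios to NS ran from -0.32 (-0.44 to -0.19) at 200 mM to 0.20 (0.09 to 0.32) at 300 mM, and none passed 1.5-fold. Esrrb (ENSMUSG00000021255) lies on chromosome 12, 86361117 to 86521628, plus strand.

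Zfp42, whose promoter the reporter uses, was lower than NS by little in ND and at 200 mM and higher at the upper doses. Its levels were 562 CPM (NS), 524 (ND), 521 (200 mM), 778 (250 mM) and 879 (300 mM). ND and 200 mM did not differ beyond counting error. The log2 ratios to NS were -0.10 (-0.15 to -0.05), -0.11 (-0.16 to -0.06), 0.47 (0.43 to 0.51) and 0.65 (0.60 to 0.69), so that 300 mM alone passed 1.5-fold. Zfp42 (ENSMUSG00000051176) lies on chromosome 8, 43295063 to 43306980, minus strand.

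**Figure D1:**
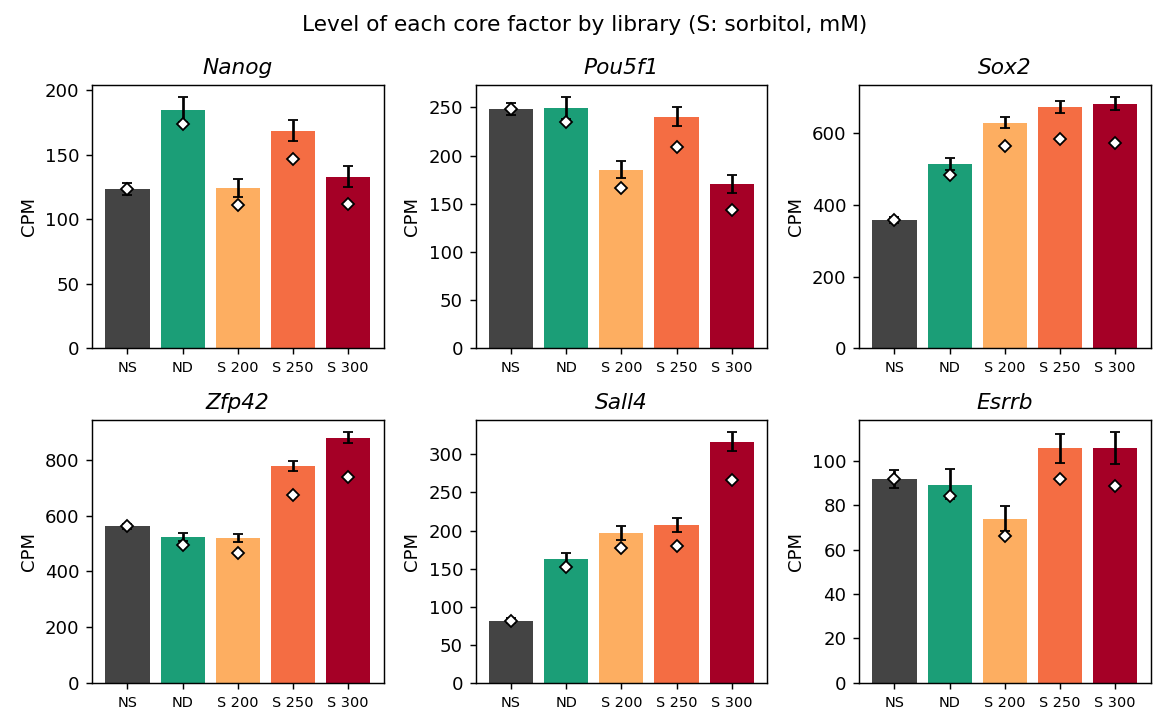
Level of each core factor in CPM (vertical axes, starting at 0) in the libraries NS, ND and sorbitol at 200, 250 and 300 mM (S 200, S 250, S 300). Bars are CPM over kept barcodes with 95% counting intervals, and open diamonds are the same levels after median-of-ratios scaling; Sall4 runs from 81.8 CPM in NS to 317 at 300 mM, and Esrrb stays between 73.8 and 106.

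The calls were read against all genes of each comparison. In ND 1 of 6 members (Sall4) was called higher, where 10.0% of 10210 measured genes were higher and 7.07% lower. At 200 mM 2 of 6 (Sall4 and Sox2) were higher, against 26.8% of 10696 genes higher and 11.0% lower. At 250 mM the same 2 were higher, against 26.5% of 10624 genes higher and 8.69% lower. At 300 mM Zfp42 joined them, making 3 of 6, against 32.8% of 10671 genes higher and 10.6% lower. No member was called lower in any of the 4 comparisons. The median log2 ratio of the 6 members was 0.26 in ND, -0.05 at 200 mM, 0.46 at 250 mM and 0.42 at 300 mM, beside 0.08, 0.20, 0.23 and 0.29 over all measured genes. The 4 comparisons share the NS library.

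A second scaling, the median of ratios over genes with at least 5 CPM in every library, shifted every log2 ratio to NS by -0.08 in ND and by -0.16, -0.20 and -0.25 over the doses. With it the genes called higher and lower became 7.32% and 9.29% in ND, 19.4% and 16.1% at 200 mM, 16.8% and 14.7% at 250 mM, and 20.6% and 18.4% at 300 mM. Sall4 kept a log2 ratio of 0.90, 1.11, 1.14 and 1.70, and Sox2 one of 0.44, 0.65, 0.71 and 0.68. Zfp42 at 300 mM fell short of the 1.5-fold line (log2 0.40), and Pou5f1 passed it downward there (log2 -0.79), so that the members at 300 mM became 2 higher and 1 lower. The sign turned for Nanog at 200 mM (0.01 to -0.15) and 300 mM (0.11 to -0.14), for Esrrb at 250 mM (0.20 to -0.0024) and 300 mM (0.20 to -0.05), and for Pou5f1 in ND (0.01 to -0.08). With this scaling Pou5f1 lay below NS beyond counting error at 250 mM (log2 -0.25, interval -0.32 to -0.18) and in ND (interval -0.15 to -0.0052).

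**Figure D2:**
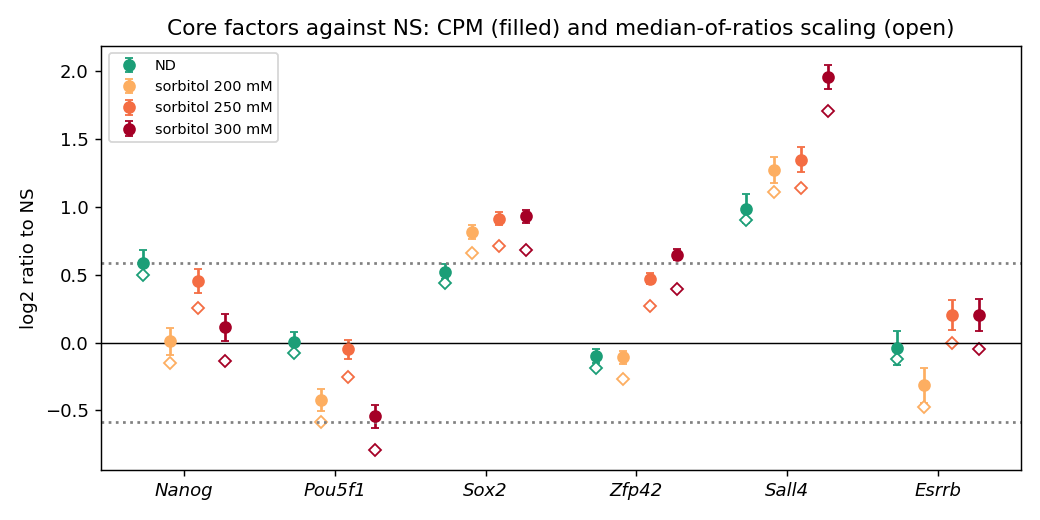
Log2 ratio of each core factor to the NS library (vertical axis) for ND and sorbitol at 200, 250 and 300 mM. Filled points are CPM ratios with 95% counting intervals, open diamonds the same ratios after median-of-ratios scaling, and dotted lines mark 1.5-fold; all Sall4 points lie above the upper line, and for Pou5f1 only the diamond at 300 mM lies clearly below the lower line.

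Ratios between 2 members within a library do not depend on scaling, and they put the balance of the core in 1 number per library. UMIs of Sox2 per UMI of Pou5f1 numbered 1.44 in NS and 2.07 (1.96 to 2.18) in ND, then 3.40, 2.81 and 4.01 with rising sorbitol. No interval overlapped another, and the 300 mM value was 2.77 times that of NS. Sall4 per Pou5f1 was 0.330 (NS), 0.651 (ND), 1.06 (200 mM), 0.865 (250 mM) and 1.86 (300 mM), the last 5.64 times NS. In both ratios NS was lowest, ND next and 300 mM highest, with 250 mM below 200 mM. Nanog per Pou5f1 was 0.496 in NS and between 0.670 and 0.782 elsewhere. Esrrb per Pou5f1 ranged from 0.359 in ND to 0.620 at 300 mM.

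Zfp42 per Nanog separated ND from the rest. It was 4.56 (4.37 to 4.75) in NS and 2.83 (2.67 to 3.01) in ND, then 4.20, 4.61 and 6.60 with rising sorbitol. ND was the lowest, 0.621 times NS, although neither gene alone was called in ND. The 250 mM value lay within the counting interval of NS, and 300 mM was 1.45 times NS.

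**Figure D3:**
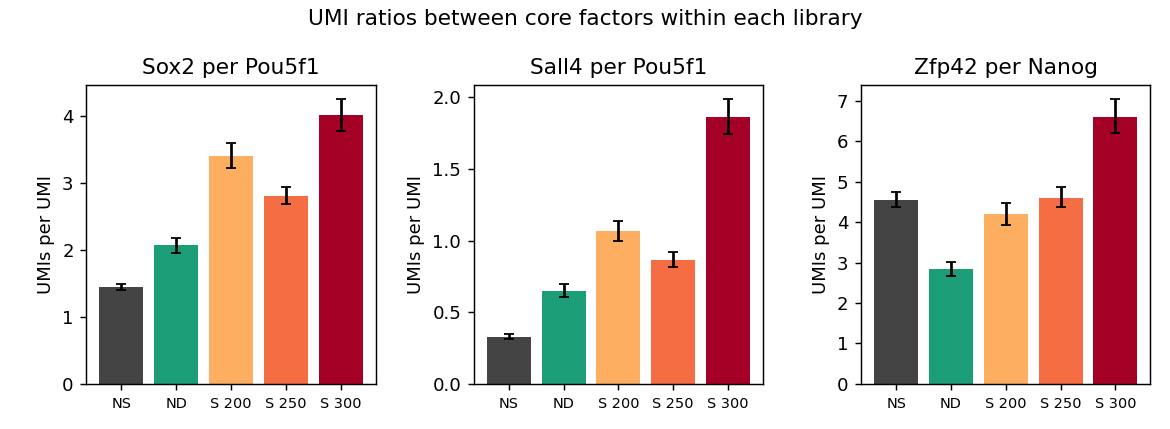
UMIs of Sox2 per Pou5f1, Sall4 per Pou5f1 and Zfp42 per Nanog (vertical axes, starting at 0) within each of the 5 libraries, with 95% counting intervals. Sox2 per Pou5f1 runs from 1.44 in NS to 4.01 at 300 mM, and Zfp42 per Nanog is lowest in ND, at 2.83.

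The genes with the most similar pattern to each member were ranked by the root-mean-square difference of centred log2(CPM + 1) profiles over the 5 libraries, among 3633 genes with at least 50 CPM in a library. For Zfp42 the nearest was Fgf4, the growth factor gene bound by Oct4 and Sox2 (difference 0.10; 90.4, 78.3, 88.6, 125 and 124 CPM in the order NS, ND, 200, 250 and 300 mM), then Kdm3a and Zfp568. For Sall4 the nearest was Pfn1, which encodes the actin-binding protein profilin (0.10; 383, 749, 844, 814 and 1277 CPM), then Lncenc1 and Wdr6. For Sox2 they were Huwe1 (0.04), Usp9x and Diaph2. For Nanog they were Pola1 (0.04), Atic and Msto1, and for Pou5f1 Gars (0.04), Lig1 and Asna1. For Esrrb they were Supt4a (0.06), Srrt and Rbm5. No member was among the 100 nearest genes of another member: the closest such pair was Zfp42 and Esrrb, with a difference of 0.18, where 127 genes were nearer to Zfp42 than Esrrb was.

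The known targets of the core were called in both directions. Of 14 listed targets, all measured, 2 were higher and 3 lower in ND, 2 and 4 at 200 mM, 2 and 1 at 250 mM, and 3 and 1 at 300 mM. In the same order 10.0%, 26.8%, 26.5% and 32.8% of all genes were higher and 7.07%, 11.0%, 8.69% and 10.6% lower. With the other scaling the target counts were 2 and 3, 2 and 5, 1 and 1, and 3 and 2. Under it 7.32%, 19.4%, 16.8% and 20.6% of all genes were higher and 9.29%, 16.1%, 14.7% and 18.4% lower. Lefty1, a Nodal inhibitor, was 69.8 CPM (NS), 152 (ND), 9.98 (200 mM), 15.3 (250 mM) and 14.6 (300 mM), so that it was higher than NS without LIF and lower with sorbitol (log2 1.12 and, at 300 mM, -2.26). Spp1, which encodes osteopontin, had the opposite pattern, with 111 CPM in NS, 67.0 in ND and 295 at 300 mM (log2 -0.73 and 1.41). Jarid2, a Polycomb cofactor, stood at 285 CPM in NS and 679 at 300 mM (log2 1.25), and Nr0b1, a nuclear receptor, at 23.3 and 42.5 CPM (log2 0.87). In ND Upp1, uridine phosphorylase, was at 283 against 878 CPM (log2 -1.63), and Tdgf1, a Nodal co-receptor, at 197 against 419 (log2 -1.09). The median log2 ratio of the targets was 0.11, -0.11, 0.22 and 0.22 over the comparisons in the same order.

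Of the partner factors of the naive state, 3 of 9 measured were higher and 2 lower in ND, against 10.0% and 7.07% of all genes. Of 8 measured with sorbitol, 3 were higher and 2 lower at 200 mM, 4 and 0 at 250 mM, and 7 and 0 at 300 mM. In the same order 26.8%, 26.5% and 32.8% of all genes were higher and 11.0%, 8.69% and 10.6% lower. With the other scaling the counts were 3 higher and 4 lower in ND, then 2 and 2, 4 and 1, and 6 and 0. Besides Klf4 and Tbx3, Nr5a2, an orphan nuclear receptor, stood at 31.0 CPM in NS, 68.2 in ND and 61.7 at 300 mM, and Tfcp2l1, a grainyhead family factor, at 96.9, 65.8 and 185. Dppa3, the maternal factor Stella, was at 58.5 CPM in NS and 136 in ND (log2 1.22), and Prdm14, a PR domain protein, at 2.57 and 8.22 (log2 1.68). Upstream regulators numbered 2 higher and 1 lower of 7 in ND, then 3, 3 and 4 higher with rising sorbitol and none lower, of 6 measured at 200 mM and 7 at the upper doses. With the other scaling they were 2 and 1 in ND, then 2, 2 and 3 higher and none lower, and the shares of all genes given above stand beside these counts too. Tcf7l1, the Wnt pathway repressor of core genes, was 58.4 CPM in NS and 188 at 300 mM (log2 1.68), Ctnnb1, which encodes beta-catenin, 119 and 261 (log2 1.13), and Foxd3, a forkhead factor, 1.49 and 9.04 (log2 2.60). Stat3 went the opposite way in ND and with sorbitol, at 43.5 CPM in NS, 19.2 in ND and 68.4 at 300 mM.

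The NuRD complex, the Sall4 partner, had 2 of 11 members higher in ND, 3 at 200 mM, 3 at 250 mM and 4 at 300 mM, and none lower. In ND 10.0% of all genes were called higher and 7.07% lower, and with rising sorbitol 11.0%, 8.69% and 10.6% were lower. With sorbitol the counts of the complex lie near the share of all genes called higher (26.8%, 26.5% and 32.8%). Its deacetylase genes Hdac1 and Hdac2 stood at 70.3 and 48.9 CPM in NS and at 164 and 120 at 300 mM (log2 1.23 and 1.29). Chd4, the remodelling ATPase, was at 309 and 654 CPM (log2 1.08), and Mta2 at 50.3 and 88.2 (log2 0.81). In ND those called were Chd4 (525 CPM, log2 0.77) and Mta1 (67.2 against 33.2 CPM in NS, log2 1.02). With the other scaling 2 were higher at 250 mM and 3 at 300 mM, against 16.8% and 20.6% of all genes. Under it 1 was lower at 200 mM, against 16.1%. The relatives of the members were mostly low, 6 or 7 of 13 measured. Sall1 was at 20.1 CPM in NS, 42.9 in ND (log2 1.09) and 30.6 at 300 mM (log2 0.61), Esrra at 7.63 and 12.2 at 300 mM (log2 0.68), and Pou3f1 at 12.0 in NS and 43.8 in ND (log2 1.86). At 300 mM 2 of 7 relatives were called higher, against 32.8% of all genes. Neither was called with the other scaling, under which 2 others were called lower, against 18.4% of all genes.

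Markers of other states moved beside the members, and their part in the levels above was not tested. The 9 formative markers summed to 145 CPM in NS, 380 in ND and 198 to 258 with sorbitol, and 7 of 8 measured were higher in ND, against 10.0% of all genes. Of 6 measured with sorbitol, 2 were higher and 1 lower at 200 mM, 3 and 2 at 250 mM, and 3 and 1 at 300 mM. The 14 primitive endoderm markers summed to 325 CPM (NS), 208 (ND), 449 (200 mM), 559 (250 mM) and 634 (300 mM), with Sparc alone at 212 CPM in NS and 389 at 300 mM and with 4 to 7 of 14 at 5 CPM or more and none at 0. Trophoblast markers summed to 163 CPM in NS, 186 in ND and 210 to 269 with sorbitol. Of 7 measured, 3 were called higher and 3 lower in ND, and 4 and 3 at 200 mM. Of 6 measured, 3 and 0 were called at 250 mM and 3 and 1 at 300 mM. Primitive endoderm markers had 0 higher and 4 lower of 6 in ND, then 4, 6 and 6 higher and 1 lower of 7 at each dose. All genes called higher were 10.0%, 26.8%, 26.5% and 32.8%, and lower 7.07%, 11.0%, 8.69% and 10.6%, in the order ND, 200, 250 and 300 mM. With the other scaling trophoblast markers had 1 and 3, 4 and 3, 2 and 1, and 3 and 2 higher and lower. Primitive endoderm markers then had 0 and 4, 3 and 1, 4 and 1, and 6 and 1. Formative markers had 7 and 0, 2 and 1, 3 and 3, and 2 and 2. All genes called with it were 7.32%, 19.4%, 16.8% and 20.6% higher and 9.29%, 16.1%, 14.7% and 18.4% lower. The neuroectoderm, mesoderm, cleavage-stage and fibroblast lists summed to at most 82.8, 38.5, 29.3 and 9.33 CPM in any library, and 3 or 4 of the 7 fibroblast markers were at 0 in each.

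Within barcodes, the members were read at 1 depth by thinning each barcode to 500 UMIs. Zfp42 was then found in 24.1% of barcodes (NS), 22.5% (ND), 22.9% (200 mM), 31.9% (250 mM) and 35.1% (300 mM). In the same order of libraries Sall4 was found in 4.17%, 7.79%, 9.09%, 9.82% and 14.6%, and Sox2 in 16.8%, 23.2%, 26.5%, 28.6% and 29.0%. Pou5f1 was found in 11.9%, 11.7%, 9.27%, 11.5% and 8.11%. Nanog was found in 5.85% to 8.86% and Esrrb in 3.65% to 5.23%. Each exact binomial interval reached at most 0.952 percentage points to a side. The shares had the same order as the CPM for Sall4 and Sox2, and for Pou5f1 apart from NS and ND, which exchanged places. They follow depth: with all UMIs Zfp42 was found in 69.2% of barcodes in NS and in 35.2% in ND. No class of barcodes that should lack these genes was identified, so the share that free RNA gives was not measured.

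The mean number of the 6 genes found in a barcode of 500 UMIs was 0.673 (NS), 0.785 (ND), 0.772 (200 mM), 0.952 (250 mM) and 0.985 (300 mM). None was found in 48.2% of barcodes in NS (47.2% to 49.2%), and the product of the 6 single shares gives 47.9%. At 300 mM these were 32.4% (31.4% to 33.3%) and 32.1%. The variance of the number found was 1.01, 1.04, 0.977, 1.02 and 1.01 times that of independent detection, in the same order of libraries. All 6 were found together in 0 of 10000 barcodes in NS at this depth, which allows a share of up to 0.03% by a floor of 3 barcodes (the exact binomial upper limit is 0.0369%), and with all UMIs in 16 barcodes in NS and 1 or 2 in each other library. With all UMIs none was found in 5.11% of barcodes (NS), 24.0% (ND), 21.2% (200 mM), 13.8% (250 mM) and 16.0% (300 mM). A single expression profile sampled at each barcode's depth gives less in each library: 4.20%, 23.3%, 20.6%, 12.4% and 15.1% in the same order.

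Pairs of members were found together about as often as their separate shares give. The co-detection ratio, the share of barcodes with both genes over the product of their shares, had a median over the 15 pairs of 0.980 (NS), 1.04 (ND), 0.967 (200 mM), 1.02 (250 mM) and 1.01 (300 mM). These medians come from 1 random draw to 500 UMIs. The values expected over all draws give 1.02, 1.02, 0.989, 1.02 and 1.01. At this depth 2 of 75 ratios had an interval off 1, Pou5f1 with Sox2 in NS (1.16, 1.01 to 1.31) and Pou5f1 with Sall4 in ND (1.34, 1.11 to 1.61). Pou5f1 with Sox2 ranged from 0.942 to 1.16 over the libraries. With all UMIs, and with each barcode's depth in the expectation, the medians were 1.02, 1.02, 0.996, 1.01 and 1.01. The ratio was then above 1 for 13 of 15 pairs in NS, 11 in ND, 5 at 200 mM, 9 at 250 mM and 12 at 300 mM. There again 2 of 75 ratios had an interval above 1 and 0 below, but for different pairs: Zfp42 with Esrrb in ND (1.14, 1.01 to 1.28) and Nanog with Zfp42 at 200 mM (1.13, 1.03 to 1.24). At 500 UMIs the intervals of these held 1 (1.16, 0.952 to 1.40, and 1.10, 0.930 to 1.29), and with all UMIs Pou5f1 with Sox2 ranged from 0.990 to 1.02. Pou5f1 with Sall4 in ND was 1.03 (0.908 to 1.17) with all UMIs. The 4 ratios were singled out after their values were seen. All co-detection intervals take the expected number as fixed and are too wide where both genes are found in many barcodes. An interval that holds 1 therefore does not show independent detection. Zfp42 with Esrrb was above 1 in all 5 libraries with all UMIs (1.01 to 1.14) and in 3 of 5 at 500 UMIs (0.959 to 1.16).

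**Figure D4:**
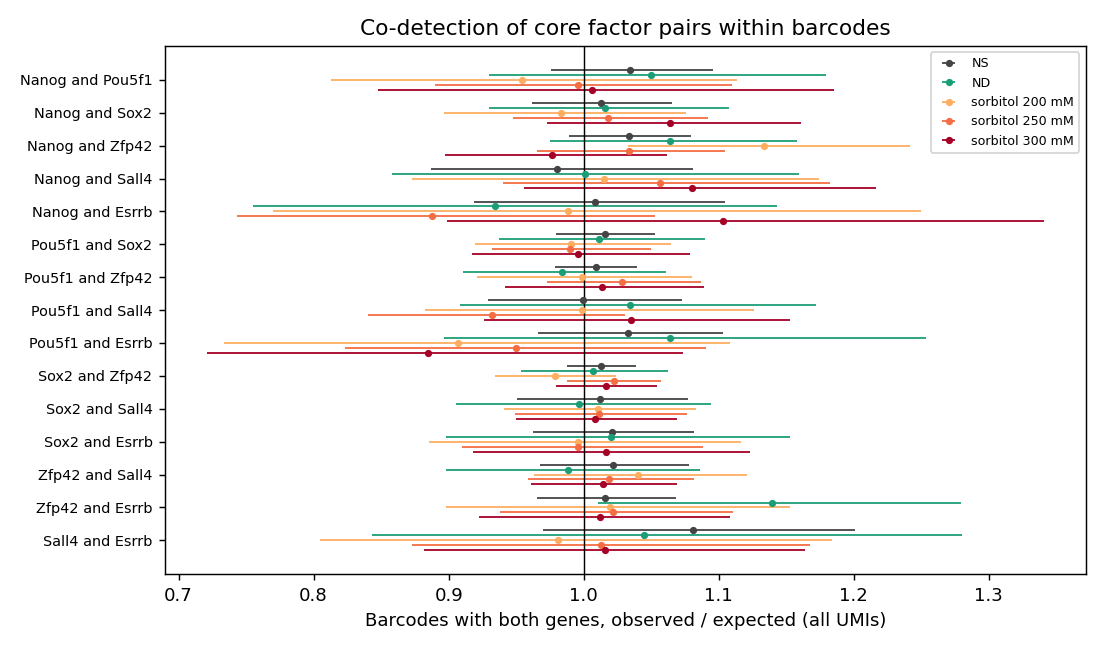
Barcodes with both genes, observed over expected with all UMIs (horizontal axis), for the 15 pairs of core factors in each of the 5 libraries, with 95% counting intervals. The vertical line at 1 marks independent detection, and 73 of the 75 intervals hold it. The intervals take the expected number as fixed, so holding 1 does not show independence.

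The spread of each gene over barcodes was compared with a single expression profile sampled at each barcode's depth, for which the variance ratio (dispersion) is 1. Zfp42 stood highest of the members in all 5 libraries, with 1.09 (NS), 1.05 (ND), 1.07 (200 mM), 1.06 (250 mM) and 1.04 (300 mM), at percentiles 96.7 to 98.6 of all genes. Among genes of like mean, within 1.5-fold, it lay at percentiles 83.6 to 96.1. Nanog lay at percentiles 72.3 to 98.5 of its own genes of like mean, above Zfp42 in NS and at 200 and 250 mM, and below it in ND and at 300 mM. The excess of the dispersion over 1, divided by the mean UMIs, was larger for Nanog than for Zfp42 in every library (0.151 against 0.074 in NS). Nanog stood at 1.04, 1.03, 1.05, 1.05 and 1.01 and Sox2 at 1.05, 1.02, 1.04, 1.04 and 1.03. Pou5f1 (0.991 to 1.02), Esrrb (0.982 to 1.01) and Sall4 (0.994 to 1.02) lay near 1. The median over all genes was 1.003 to 1.007, and Malat1, a nuclear noncoding RNA, was highest in every library (3.24 to 7.49).

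**Figure D5:**
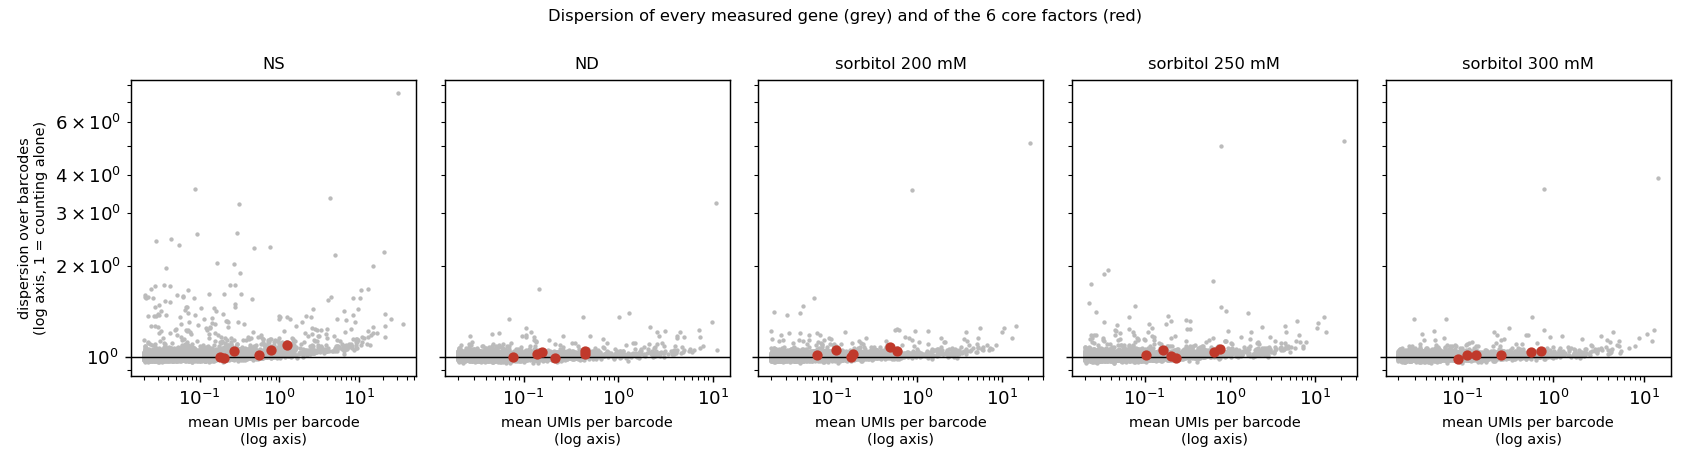
Dispersion over barcodes (vertical log axis, 1 is counting alone) against mean UMIs per barcode (horizontal log axis) for every gene with a mean of at least 0.02 in each of the 5 libraries, with the 6 core factors in red. The core factors lie between 0.982 and 1.09, and Malat1 at the upper right reaches 3.24 to 7.49.

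Co-detection of the members with genes outside the group was counted over all genes and then over the lists. Of 36977 pairs of a member and any other gene with at least 20 barcodes expected in every library, 3.43% had a co-detection ratio above 1 in all 5 libraries and 3.53% below 1 in all 5. For listed core targets 13 of 75 pairs (17.3%) were above 1 in all 5 and 1 was below. For naive partner factors 5 of 44 (11.4%) were above and 0 below. These pairs share members, partners and barcodes, so they are not independent, and no test was made of the difference.

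Zfp42 accounted for 7 of the 13 target pairs. With Fgf4 its ratio ran from 1.03 to 1.19 over the libraries, with Spp1 from 1.02 to 1.10, and with Dppa4, an early embryonic nuclear protein, from 1.01 to 1.07. The others were Utf1, Tdgf1, Upp1 and Rest. Fgf4 and Tdgf1 each had 1 of 5 intervals above 1 with Zfp42, and the other 5 targets had 0. Among partner factors, Nanog with Nr5a2 ran from 1.04 to 1.27 and with Tbx3 from 1.02 to 1.25, Esrrb with Nr5a2 from 1.03 to 1.41 and with Tfcp2l1 from 1.02 to 1.15, and Sall4 with Tbx3 from just above 1 to 1.09. Nanog with Nr5a2 had 1 of 5 intervals above 1, and the other 4 pairs had 0, so that none of their single ratios was off 1 by these intervals. In the other direction, primitive endoderm markers had 2 of 17 pairs below 1 in all 5 libraries and trophoblast markers 2 of 14, with none above in either list. They were Zfp42 with Col4a1 (0.921 to 0.956), Sox2 with Lamb1 (0.817 to 0.977), Pou5f1 with Tfap2c (0.781 to 0.963) and Sox2 with Krt18 (0.629 to 0.984). The last 2 pairs had 1 of 5 intervals below 1, and the first 2 had 0. Formative markers had 2 of 23 above and 2 below. Those above were Zfp42 with Tcf15 (just above 1 to 1.13) and Sall4 with Otx2 (1.01 to 1.05). Those below were Sox2 (0.939 to 0.995) and Zfp42 (0.835 to 0.982) with Pou3f1. Each of these formative pairs had 0 of 5 intervals off 1.

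Zfp42 with H19, an imprinted noncoding RNA, was below 1 in every library: 0.941 (0.891 to 0.992) in NS, 0.961 (0.864 to 1.06) in ND, then 0.941, 0.889 and 0.939 with rising sorbitol, each of these 3 with an interval below 1. H19 was also below 1 in all 5 libraries with Pou5f1 (0.873 to 0.992), Sox2 (0.913 to 0.975) and Esrrb (0.907 to 0.933), with no interval off 1 for any of the 3. With Nanog it ran from 0.884 to 1.05, with 1 of 5 intervals below 1, and with Sall4 from 0.990 to 1.13, with 0 off 1. The dispersion of H19 was 1.68 in ND and 3.21 to 4.99 elsewhere, second to Malat1 in 4 libraries. H19 was named by the rule of the lowest ratios with a member among 2763 genes at 500 UMIs, of which 3.37% were below 1 with Zfp42 in all 5 libraries.

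The 5% of barcodes with the largest share of trophoblast marker UMIs, 462 to 500 per library, were set beside the rest. Zfp42 there was 666 CPM (588 to 751) at 300 mM against 890 (869 to 911) in the other barcodes (log2 -0.42, -0.60 to -0.24), and 656 against 784 at 250 mM (log2 -0.26, -0.42 to -0.10). The median barcode of that range at 300 mM held 756 UMIs against 804 in the others. In ND Zfp42 was at 527 against 523 CPM. Sox2 was lower there at 200 mM (log2 -0.23) and 300 mM (log2 -0.26), and Pou5f1 at 250 mM (log2 -0.44). Of 30 such values, 5 had an interval off 0, all below. The same split on the naive partner factors gave 5 of 30 off 0, all above, among them Pou5f1 in ND (log2 0.39, 0.11 to 0.65) and at 300 mM (log2 0.56, 0.25 to 0.86). Primitive endoderm markers gave 3 of 30 and formative markers 2, all below, and cleavage-stage markers gave 2 above and 1 below. Splitting barcodes at the median of their UMIs or of their mitochondrial share gave 2 of 30 each.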

How the data were processed

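The authors deposited 5 matrices of unnormalized UMI counts, whose headers name Cell Ranger 6.0.1 (per the file headers). Per the submitters' processing notes, mm10, R 4.1.2 and Seurat 4.1.1 are named without roles. The labels' protocol names Trizol lysis and a Lexogen 3' kit, whereas the matrices are droplet matrices; which steps apply was not settled, and strand use and the choice of 10000 barcodes were not given in the sources used here. Overlapping genes are therefore uncertain.

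A barcode was kept with 500 genes or more and no more than 20% mitochondrial UMIs; no doublet caller was run. Ratios of CPM have exact conditional binomial 95% intervals, levels exact Poisson and shares Clopper-Pearson ones, with a floor of 3 UMIs. Intervals cover counting error only. Thinning to 500 UMIs was seeded. Expected co-detection with all UMIs used the library profile, barcode depth and each gene's share, and was chosen after seeing the data. The members and the 13 gene lists were chosen with earlier results of these data known. Genes named were the members; per list up to 4 with the largest ratios past 1.5-fold at 300 mM or in ND; and per member the 3 nearest in pattern and, in co-detection, those at either end and listed pairs on 1 side of 1 in all 5 libraries. A gene that this rule names among the core targets is not reported here. Of the co-detected genes at either end only H19 is reported, singled out for its dispersion after its values were seen, as were the listed pairs and the 5 listed barcode ranges. Scripts (Python 3.11.15, numpy 2.4.6, scipy 1.17.1, pandas 2.3.3) were tested on simulated data. Coordinates are GENCODE M21 (GRCm38), 1-based. Alternatives were median-of-ratios scaling, totals without mitochondrial and ribosomal protein genes, no filter on barcodes or on level, at least 700 genes, leaving out the 5% deepest barcodes, other thinning and another seed.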

Additional observations from a re-analysis of the deposited data

How the results depend on the processing

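No called ratio changed sign under the alternatives run. Of 168 single ratios to NS recomputed, 132 moved by less than their counting interval and 36 by more, most of them with median-of-ratios scaling. Of 28 recomputed counts of members past 1.5-fold, which pool both directions, 27 lay within 1.5 times the reported count. Without the 5% of barcodes with most UMIs, the count in ND was 2 in place of 1, with Nanog past the line (log2 0.60). An unchanged count can hide changed calls. With totals without mitochondrial and ribosomal protein genes, Zfp42 at 300 mM fell short of the line (log2 0.54) and Pou5f1 passed it downward (log2 -0.65). The count there stayed at 3, as it did with median-of-ratios scaling, which moved the same calls. Thinning to 300 UMIs without mitochondrial and ribosomal protein genes gave a mean number of members found of 0.596 (NS), 0.677 (ND), 0.678 (200 mM), 0.817 (250 mM) and 0.821 (300 mM); it draws fewer UMIs by construction. With a minimum of 700 genes, which 274 ND barcodes reached, that number was 0.755 in ND and 0.824 at 200 mM. With another seed, which changes only the random draw of UMIs, the median co-detection ratio was 1.08 in NS and 1.01 at 200 mM, against 0.980 and 0.967. It was 1.08 in NS with the 300-UMI thinning. With at least 700 genes it was 1.13 in ND, 0.923 at 200 mM and 1.04 at 300 mM. The cause of the shifts with the 300-UMI thinning and with 700 genes was not tested. No paired analysis was possible because each condition has 1 library. Depth limits the barcode values, since a barcode of 500 UMIs held fewer than 1 member on average in every library.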
